A study of Homo sapiens with 12 samples.

Results

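The 30 microRNAs (miRNAs) described here are those that reached a count minimum after MUC1 silencing in 2 human acute myeloid leukaemia lines, THP-1 and MOLM-14. They were taken by a count rule, 30 counts or more in at least 3 of the 6 silenced samples, and were 30 of 798 probes. Levels were read on a NanoString platform, which tallies single barcoded molecules without amplifying them. The tested cells were silenced THP-1 (3 samples), set against silenced MOLM-14 (3 samples), both carrying a lentiviral short hairpin RNA against MUC1. Scrambled THP-1 and scrambled MOLM-14 (3 samples each) carried a scrambled hairpin by the same route and served as the level of each line without silencing. The labels name neither the hairpin's sequence nor separate cultures, so p-values measure the spread between these samples, which may be technical.

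miRNAs are short RNAs that guide a silencing complex to messenger RNAs, mostly by pairing through their seed, bases 2 to 8 from the 5′ end. miRNAs with the same seed form a family with overlapping targets. MUC1, a membrane-spanning mucin, is under study as a driver of this leukaemia. Both lines are of monocytic type and carry a fusion of KMT2A with MLLT3, so they share a founding lesion but come from different patients' leukaemias. In RNA of a whole culture, a lower level in every cell and a smaller share of cells with the miRNA cannot be told apart.

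RefSeq (GRCh38.p14) gave a mature sequence for 27 of the 30, all but miR-150-5p, miR-598-3p and miR-612. Shown are members with large differences between the silenced lines in either direction and the 3 groups of members that share a seed, with the seed in capitals.
let-7b-5p: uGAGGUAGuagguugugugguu
let-7c-5p: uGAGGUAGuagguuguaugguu
miR-196a-5p: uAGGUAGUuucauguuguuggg
miR-15b-5p: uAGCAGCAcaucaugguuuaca
miR-16-5p: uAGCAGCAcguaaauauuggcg
miR-25-3p: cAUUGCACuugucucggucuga
miR-92a-3p: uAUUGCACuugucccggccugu
miR-363-3p: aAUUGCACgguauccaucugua
miR-181a-5p: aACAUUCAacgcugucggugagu
miR-23a-3p: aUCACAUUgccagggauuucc
miR-3065-5p: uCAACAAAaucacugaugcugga
miR-191-5p: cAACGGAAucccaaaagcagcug
miR-4443: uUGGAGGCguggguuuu
miR-1180-3p: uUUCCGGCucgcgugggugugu
The 27 sequences held 23 different seeds. let-7b-5p and let-7c-5p were identical at 21 of 22 positions, miR-25-3p and miR-92a-3p at 18 of 22, and miR-363-3p and miR-92a-3p at 10 of 22. The seed of miR-196a-5p also occurred in let-7b-5p, at bases 3 to 9, one base downstream of the let-7 seed. Members with neighbouring genes were miR-15b-5p with one copy of miR-16-5p (plus strand, chr3:160404607-160404775) and miR-363-3p with one copy of miR-92a-3p (minus strand, chrX:134169382-134169565).

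Library totals were 9002 to 12613 counts in silenced THP-1 and 11103 to 17281 in silenced MOLM-14, against 17123 to 20418 in scrambled THP-1 and 12978 to 17527 in scrambled MOLM-14. Background was taken as the mean of 630 probes that stayed above 1 and under 30 counts in all 12 samples. It was 12.5 ± 2.12 counts in silenced THP-1 and 12.1 ± 1.34 in silenced MOLM-14 (SD of library means, n = 3 each). The upper end of the background range, just under 30 counts, is set by this definition and is not a measured limit of noise. A member under 30 lies within that range, so the size of its difference is uncertain. Silenced MOLM-14 sample 2 stood apart, with Pearson r of 0.654 and 0.697 across probes with samples 1 and 3 of its group, against 0.961 between those. The source names of silenced MOLM-14 samples 2 and 3 read MUC2 and MUC3, while titles and transduction labels give MUC1 for both. The 3 silenced THP-1 samples differed little beyond counting noise over the tested probes, with chi-square per degree of freedom of 0.944, 0.954 and 1.06, and were kept as 3 samples, so their spread may be mostly counting noise. MUC1 itself was not measured by these probes.

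At a minimum of 30 counts, fewer miRNAs remained after silencing in THP-1 than in MOLM-14, and at 20 counts the order turned. The counts were not scaled for depth, and 20 counts lies within the range of background probes. Silenced THP-1 samples had 14 to 32 of the 798 probes at 30 counts or more. Silenced MOLM-14 samples had 28 to 88, the 88 being sample 2. At near equal totals of 12613 and 12630 counts, sample 1 of THP-1 and of MOLM-14 had 32 and 33 such probes. A miRNA was said to remain in a line when at least 2 of its 3 silenced samples had 30 counts or more. Scrambled counts played no part in this, and miR-150-5p and miR-196a-5p were under 30 in every scrambled sample. Of the 30, 3 remained in THP-1 only (miR-196a-5p, miR-1180-3p and miR-363-3p), 12 in MOLM-14 only and 15 in both lines. Over all 798 probes, 20 remained in silenced THP-1 and 31 in silenced MOLM-14, so some probes that remained in a line are not among the 30. With the minimum set at 20 counts, 30 miRNAs remained in THP-1 only, 25 in MOLM-14 only and 43 in both lines. When all 3 samples of a line had to reach 30, 7 remained in both: let-7b-5p, miR-149-5p, miR-188-5p, miR-548ah-5p, miR-598-3p, miR-612 and miR-6721-5p. The 30 took 10.8 ± 0.0439% of all counts in silenced THP-1 and 20.9 ± 2.14% in silenced MOLM-14 (SD, n = 3 each). With 12 of the 30 remaining in MOLM-14 only and 3 in THP-1 only, the count rule favours a higher share in silenced MOLM-14. In scrambled cells they took 32.7 ± 3.38% in THP-1 (n = 3) and 20.1% to 23.8% in the MOLM-14 samples. Nearest the limit, the third highest of the 6 silenced counts was 31 for miR-1299 and miR-342-3p and 32 for miR-363-3p. Just outside, it was 29 for miR-1290, miR-1306-5p, miR-4531 and miR-761.

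**Figure D1:**
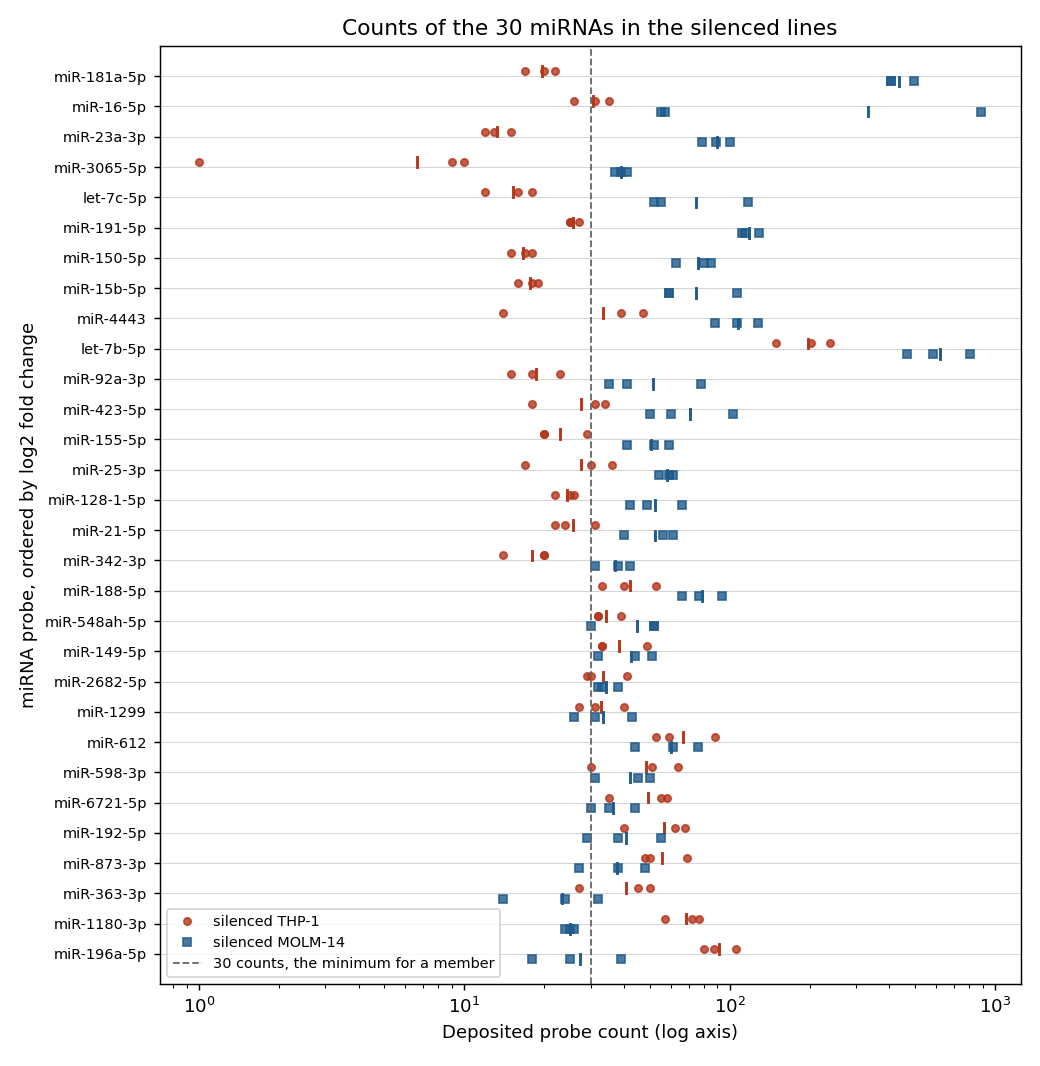
Deposited counts of the 30 miRNAs in each silenced sample (points, log axis) with the mean of 3 samples (short bars), silenced THP-1 drawn above silenced MOLM-14 in each row and the limit of 30 counts dashed. The upper 18 rows have no overlap between the lines, the middle rows overlap, and in the last 2 rows (miR-1180-3p, miR-196a-5p) THP-1 lies above MOLM-14.

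Ranks were taken by mean count among all 798 probes. Since probes differ in efficiency, a rank orders counts and not molecules. let-7b-5p was first in both silenced lines, and in silenced MOLM-14 sample 2 alone it was second, behind miR-16-5p. In silenced THP-1 the next places were held by miR-196a-5p (rank 2), miR-1180-3p (3), miR-612 (4) and miR-192-5p (5). The same 4 stood at ranks 62, 70, 17 and 31 in silenced MOLM-14. In the other direction, miR-181a-5p was at rank 72 in silenced THP-1 and 2 in silenced MOLM-14, miR-191-5p at 26 and 6, and miR-23a-3p at 335 and 9. The top 10 of the lines shared 2 miRNAs, let-7b-5p and miR-188-5p. Silenced MOLM-14 sample 2 put let-7a-5p (395 counts), miR-877-5p (350) and miR-1290 (303) into that line's top 10, none of which is among the 30. Without that sample the top 10 of silenced MOLM-14 held 10 of the 30 members and shared 3 with silenced THP-1, miR-612 being the third.

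**Figure D2:**
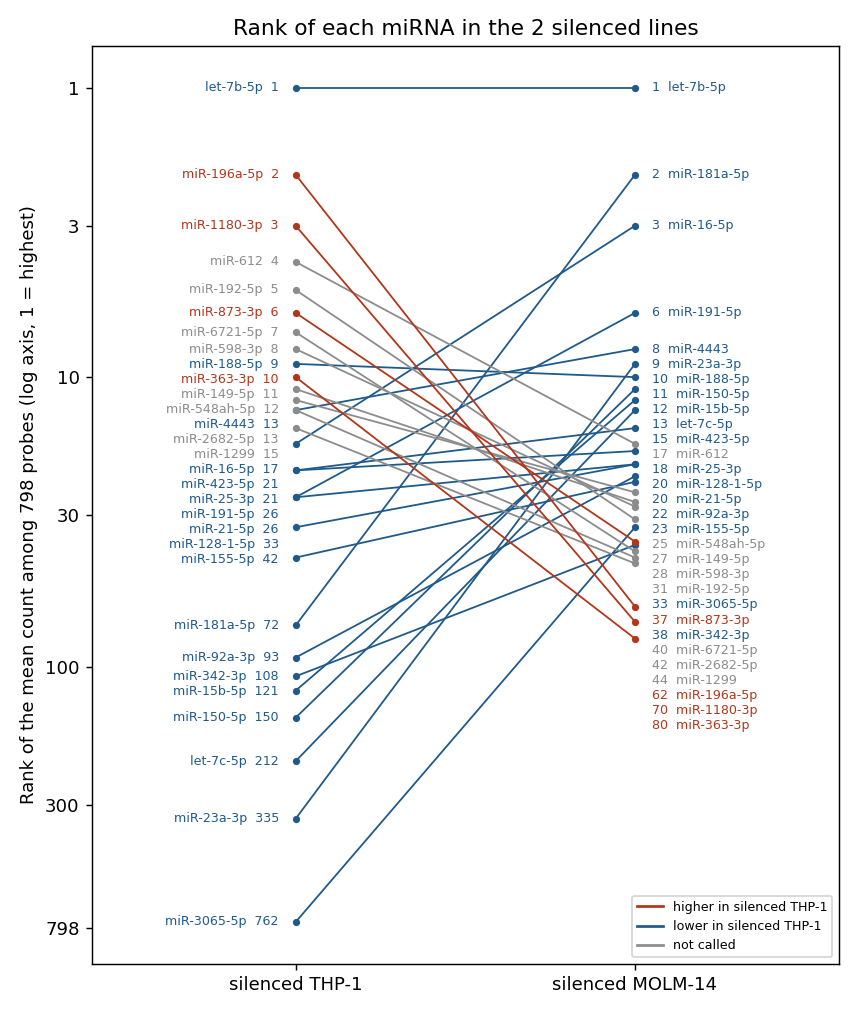
Rank of the mean count of each of the 30 miRNAs among 798 probes (log axis, 1 is the highest count) in silenced THP-1 (left) and silenced MOLM-14 (right), with lines coloured by the call between the lines. let-7b-5p is first on both sides, and miR-181a-5p is at 72 in THP-1 and at 2 in MOLM-14.

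The 2 silenced lines were then compared miRNA by miRNA. Of the 30, 18 were lower in silenced THP-1, 4 were higher and 8 did not pass (edgeR quasi-likelihood, Benjamini-Hochberg adjusted p under 0.05 over the 67 probes tested). Over those 67 probes 53.7% were called, 46.3% lower and 7.46% higher. All 12 that remained in MOLM-14 only were lower in THP-1 and all 3 that remained in THP-1 only were higher, which the count rule favours, so these counts are a description. Of the 12, all but miR-21-5p reached 30 counts in silenced MOLM-14 samples alone, so the count rule set their direction. The same holds for miR-1180-3p in silenced THP-1. The p-values of these members are likewise a description. Of the 15 that remained in both lines, 6 were lower, 1 was higher and 8 did not pass. Deposited counts of the lines did not overlap for 20 of the 30, 18 lower and 2 higher in THP-1, against 41.8% of the 67 (35.8% lower and 5.97% higher). The median log2 fold change, silenced THP-1 over silenced MOLM-14, was -1.05 over the 30 and -0.58 over the 67. The count rule favours a more negative median over the 30. The share of higher calls over the 67 depended on scaling: it was 13.9% (5 of 36) with TMM factors over all probes, 37.8% (14 of 37) with TMM over the 67, 36.8% (14 of 38) with total counts and 51.4% (18 of 35) with the top 100 probes. These scalings moved the median of the 67 to -0.23, -0.27 and 0.01. No called member changed direction under any of the 25 alternatives. Without silenced MOLM-14 sample 2, 21 of the 22 calls remained, 3 higher and 18 lower. Over the 67 probes 25 were then called, 3 higher and 22 lower, in place of 36. With the 3 silenced THP-1 samples averaged into 1, 10 of the 30 were called, 2 higher and 8 lower.

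miR-181a-5p, which tunes T-cell receptor signalling and B-cell formation, had the most negative log2 fold change of the 30. It had 22, 20 and 17 counts in silenced THP-1, against 404, 494 and 407 in silenced MOLM-14. The lines lie far apart, and the THP-1 counts are within reach of background, so the size is uncertain. The fitted log2 fold change was -4.45 ± 0.24 (SE, edgeR adjusted p = 3.17e-08) and ranged from -5.45 to -3.92 over the alternatives. Of the lymphoid list, 3 of 4 measured probes were members. All 3 reached 30 counts in MOLM-14 samples alone, so the count rule set their direction, and 46.3% of the 67 tested probes were lower. miR-150-5p, which represses the transcription factor MYB, had 17, 18 and 15 counts in silenced THP-1, against 63, 85 and 80 in silenced MOLM-14 (-2.18 ± 0.27). Its THP-1 counts are near background. miR-342-3p, encoded in an intron of EVL, had 14, 20 and 20 counts in silenced THP-1, against 31, 38 and 42 in silenced MOLM-14 (-1.01 ± 0.26). That call was lost with TMM over the 67 probes, with the top 100 probes and with the silenced THP-1 samples averaged.

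let-7 miRNAs repress RAS, HMGA2 and LIN28. let-7b-5p had 239, 203 and 150 counts in silenced THP-1, against 467, 802 and 586 in silenced MOLM-14. Every THP-1 count was below every MOLM-14 count and all 6 were well above background. The fit gave -1.65 ± 0.25, or 3.14-fold lower in THP-1 (edgeR adjusted p = 0.000228). let-7c-5p had 18, 16 and 12 counts in silenced THP-1, against 55, 117 and 52 in silenced MOLM-14 (-2.25 ± 0.30). With 21 of 22 bases shared with let-7b-5p, its probe may pick up signal of the other, which was not tested. Of 9 measured let-7 probes 6 were tested and all 6 were lower in silenced THP-1, against 46.3% of the 67, and 2 of them were members. let-7a-5p, not a member, stood at 1, 1 and 1 in silenced THP-1 and at 1, 395 and 78 in silenced MOLM-14.

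miR-15b-5p and miR-16-5p, which repress BCL2 and cyclins, share the seed AGCAGCA and a locus. miR-15b-5p had 19, 16 and 18 counts in silenced THP-1, against 59, 107 and 59 in silenced MOLM-14 (-2.04 ± 0.32, edgeR adjusted p = 0.000358). miR-16-5p had 35, 26 and 31 counts in silenced THP-1, against 55, 888 and 57 in silenced MOLM-14. The size of the miR-16-5p difference was set by sample 2 of MOLM-14: the log2 fold change was -3.31 ± 0.89 with it and -0.91 ± 0.32 without it (edgeR adjusted p = 0.00894 and 0.0370). It passed in both fits and did not pass with the silenced THP-1 samples averaged.

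The 3 members with the seed AUUGCAC come from miR-17-92 or its paralogous clusters, and they did not all differ in the same direction. miR-92a-3p had 23, 18 and 15 counts in silenced THP-1, against 35, 78 and 41 in silenced MOLM-14 (-1.43 ± 0.33). miR-25-3p, encoded within MCM7, had 30, 36 and 17 counts in silenced THP-1, against 59, 54 and 61 in silenced MOLM-14 (-1.09 ± 0.24). That call was lost with the top 100 probes (-0.57, edgeR adjusted p = 0.0921) and with the silenced THP-1 samples averaged. miR-363-3p had 50, 45 and 27 counts in silenced THP-1, against 24, 32 and 14 in silenced MOLM-14 (0.81 ± 0.23, edgeR adjusted p = 0.0108). Its lines overlapped, at 27 in THP-1 and 32 in MOLM-14. The call for miR-363-3p was lost without the count filter, with a filter at 20 counts and with the silenced THP-1 samples averaged. miR-363-3p and one of the 2 miR-92a loci start 162 bases apart on the X chromosome, while the other miR-92a locus lies on chromosome 13. Since both loci give the same mature miR-92a-3p, its probe does not separate them.

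Among miRNAs of myeloid cells, miR-155-5p, which acts in inflammatory responses and represses the phosphatase SHIP1, had 29, 20 and 20 counts in silenced THP-1, against 52, 59 and 41 in silenced MOLM-14 (-1.12 ± 0.24). miR-21-5p, which represses PDCD4, had 31, 24 and 22 counts in silenced THP-1, against 40, 61 and 56 in silenced MOLM-14 (-1.03 ± 0.24). Both had no overlap between the lines, and miR-21-5p lost the call with the top 100 probes and, like miR-155-5p, with the silenced THP-1 samples averaged. miR-23a-3p, of a cluster that favours myeloid over B-cell development in mice, had 13, 15 and 12 counts in silenced THP-1, against 89, 79 and 100 in silenced MOLM-14. THP-1 was at background and MOLM-14 clearly above it (-2.74 ± 0.23, edgeR adjusted p = 2.25e-06). The defining myeloid miRNA miR-223-3p did not reach the count rule, with 11, 8 and 8 counts in silenced THP-1 and 35, 22 and 24 in silenced MOLM-14. The 8 measured probes of the myeloid list summed to 95 to 148 counts in silenced THP-1 and 195 to 229 in silenced MOLM-14. These sums include background and were not scaled for depth. Apart from miR-155-5p, miR-21-5p and miR-223-3p, probes of the list had at most 27 counts in any silenced sample.

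Several further members of general or little described function were lower in THP-1. miR-191-5p, encoded with miR-425 in an intron of DALRD3, had 25, 27 and 25 counts in silenced THP-1, against 114, 111 and 129 in silenced MOLM-14 (-2.19 ± 0.24, edgeR adjusted p = 2.74e-05). These THP-1 counts lie within the range of background probes, so the size is uncertain. miR-4443 had 47, 39 and 14 counts in silenced THP-1, against 107, 88 and 128 in silenced MOLM-14 (-1.76 ± 0.32). The 14 counts were near the background mean of that sample, 10.1. Its probe was listed among those close to other small RNAs, and whether it picks up such RNAs was not tested. miR-423-5p, which is often used as a reference miRNA, had 31, 34 and 18 counts in silenced THP-1, against 50, 103 and 60 in silenced MOLM-14 (-1.35 ± 0.29). miR-188-5p had 53, 40 and 33 counts in silenced THP-1, against 66, 94 and 77 in silenced MOLM-14 (-0.91 ± 0.22). It was one of 4 miRNAs lower in THP-1 with a THP-1 mean of 30 counts or more, beside let-7b-5p, miR-16-5p and miR-4443, but its call was lost with the top 100 probes (-0.36, edgeR adjusted p = 0.119) and with the silenced THP-1 samples averaged. miR-128-1-5p had 26, 25 and 22 counts in silenced THP-1, against 42, 66 and 49 in silenced MOLM-14 (-1.08 ± 0.22). miR-3065-5p, encoded opposite miR-338, had 9, 1 and 10 counts in silenced THP-1, against 39, 37 and 41 in silenced MOLM-14 (-2.51 ± 0.87, edgeR adjusted p = 0.0331). The count of 1 is the lowest value of the table, and the call was lost in 5 alternatives: without silenced THP-1 sample 1, without its sample 2, without silenced MOLM-14 sample 3, with the top 100 probes and with the silenced THP-1 samples averaged.

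Higher in silenced THP-1 were 4 of the 30. miR-196a-5p, encoded in the HOXB and HOXC clusters and a repressor of HOX genes, had 106, 87 and 80 counts in silenced THP-1, against 18, 39 and 25 in silenced MOLM-14. The lines lie apart, with MOLM-14 near background in sample 1. The log2 fold change was 1.75 ± 0.31 (edgeR adjusted p = 0.000691), and it was 2.01 without silenced MOLM-14 sample 2. All 3 silenced THP-1 samples reached 30 counts, with 1 silenced MOLM-14 sample and no scrambled sample. miR-196a-5p thus passed the count filter only through silenced THP-1, so the filter favoured its direction and the p-value is a description. The other 3 probes of the HOX list, miR-10a-5p, miR-10b-5p and miR-196b-5p, had at most 26 counts in any silenced sample. miR-1180-3p had 77, 72 and 57 counts in silenced THP-1, against 25, 24 and 26 in silenced MOLM-14 (1.45 ± 0.20, edgeR adjusted p = 0.000137). miR-873-3p had 48, 69 and 50 counts in silenced THP-1, against 48, 38 and 27 in silenced MOLM-14 (0.60 ± 0.22, edgeR adjusted p = 0.0379). The lines of miR-873-3p touch at 48 counts, and it lost the call in 12 of 25 alternatives, with silenced MOLM-14 sample 2 left out among them.

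The 8 members that did not pass remained in both lines and had overlapping counts. miR-612 had 88, 59 and 53 counts in silenced THP-1, against 76, 44 and 61 in silenced MOLM-14 (0.13, 95% interval -0.41 to 0.67). miR-192-5p, a miRNA of liver and gut that p53 induces, had 62, 68 and 40 counts in silenced THP-1, against 55, 38 and 29 in silenced MOLM-14 (0.49, interval 0.02 to 0.96, edgeR adjusted p = 0.0758). It passed as higher with TMM over the 67 probes, total counts or the top 100 probes, and without silenced MOLM-14 sample 1. miR-6721-5p (0.44) also passed under those 3 scalings, and miR-598-3p (0.21) with the top 100 probes. Log2 fold changes of miR-149-5p, miR-1299, miR-2682-5p and miR-548ah-5p were -0.12, -0.01, -0.03 and -0.35. Intervals of the 8 ran from -1.04 to 0.96 at the widest, the lower end being that of miR-548ah-5p, so differences within each interval are not excluded. Their group means lay between 32.7 and 77.5 counts over all 4 groups of the series, scrambled cells included, and the highest group mean of each was 1.11 to 1.40 times its lowest. For the 18 lower members that ratio was 1.88 to 22.1. The ratios include the silenced groups on which the call was made, so the call favours this contrast and it is a description. Of the 10 miRNAs of highest count in silenced THP-1, 8 were among those that did not pass or were higher. Among all members, 8 did not pass and 4 were higher. The silenced THP-1 counts that ranked these 10 also enter the call, which favours this outcome, so it is a description.

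Scrambled cells were used to see whether the lines differed before silencing. That comparison shares no sample with the one above, but both come from the same model with a shared estimate of the spread. Of the 30, 2 differed between scrambled THP-1 and scrambled MOLM-14, with 10.4% of the 67 called (5.97% higher and 4.48% lower). miR-181a-5p was lower in scrambled THP-1 too, with 75, 86 and 75 counts against 217, 313 and 379 in scrambled MOLM-14 (-1.95 ± 0.21). let-7b-5p was higher in scrambled THP-1, with 3409, 4860 and 3259 counts against 929, 1426 and 1529 in scrambled MOLM-14 (1.56 ± 0.24), the opposite order to silenced cells. Across the 30 miRNAs the log2 fold changes of silenced and scrambled cells had Pearson r = 0.126 and Spearman rho = -0.0928, given as a description without a test, since miRNAs of a library share its scaling and depth.

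The line difference itself differed between silenced and scrambled cells for 18 of the 30, 16 lower and 2 higher in the silenced comparison (edgeR interaction contrast, with 38.8% of the 67 called, 35.8% lower and 2.99% higher). The count rule used the silenced counts of this contrast. It thus favours negative values for members that remained in MOLM-14 only and positive values for those in THP-1 only, so the counts of calls and the p-values of these members are a description. For let-7b-5p the difference was -3.21 ± 0.35 (edgeR adjusted p = 6.24e-05). It took 1.77 ± 0.115% of all counts in silenced THP-1 and 4.54 ± 0.795% in silenced MOLM-14 (SD, n = 3 each), against 20.6 ± 2.96% in scrambled THP-1 and 7.16% to 8.82% in the scrambled MOLM-14 samples. miR-191-5p had 408, 517 and 397 counts in scrambled THP-1 and 257, 300 and 347 in scrambled MOLM-14, which put THP-1 above MOLM-14 without a call (0.53 ± 0.22), and the difference of differences was -2.72 ± 0.33. miR-150-5p had 24, 12 and 16 counts in scrambled THP-1 and 11, 12 and 18 in scrambled MOLM-14, so of the 4 groups silenced MOLM-14 stood clearly above background. miR-196a-5p had 11, 22 and 9 counts in scrambled THP-1 and 21, 18 and 24 in scrambled MOLM-14, so of the 4 groups silenced THP-1 stood furthest above background. The difference of differences was -2.51 ± 0.41 for miR-150-5p and 2.35 ± 0.46 for miR-196a-5p. Each of them passed the count filter only through that silenced group, so the filter favoured its direction and these values are a description. miR-23a-3p had 71, 75 and 82 counts in scrambled THP-1 and 83, 103 and 105 in scrambled MOLM-14, which came within 1 count of each other without overlapping, and it was not called there (-0.37 ± 0.20, edgeR adjusted p = 0.274). For miR-16-5p the difference of differences was -3.43 (edgeR adjusted p = 0.0398) and the call was lost in 18 of 23 alternatives. Without silenced MOLM-14 sample 2 it was -1.02 ± 0.43 (edgeR adjusted p = 0.0846). With TMM over the 67 probes, 12 of the 30 were called in this contrast, 2 higher and 10 lower, against 23.9% of the 67 (5.97% higher and 17.9% lower).

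**Figure D3:**
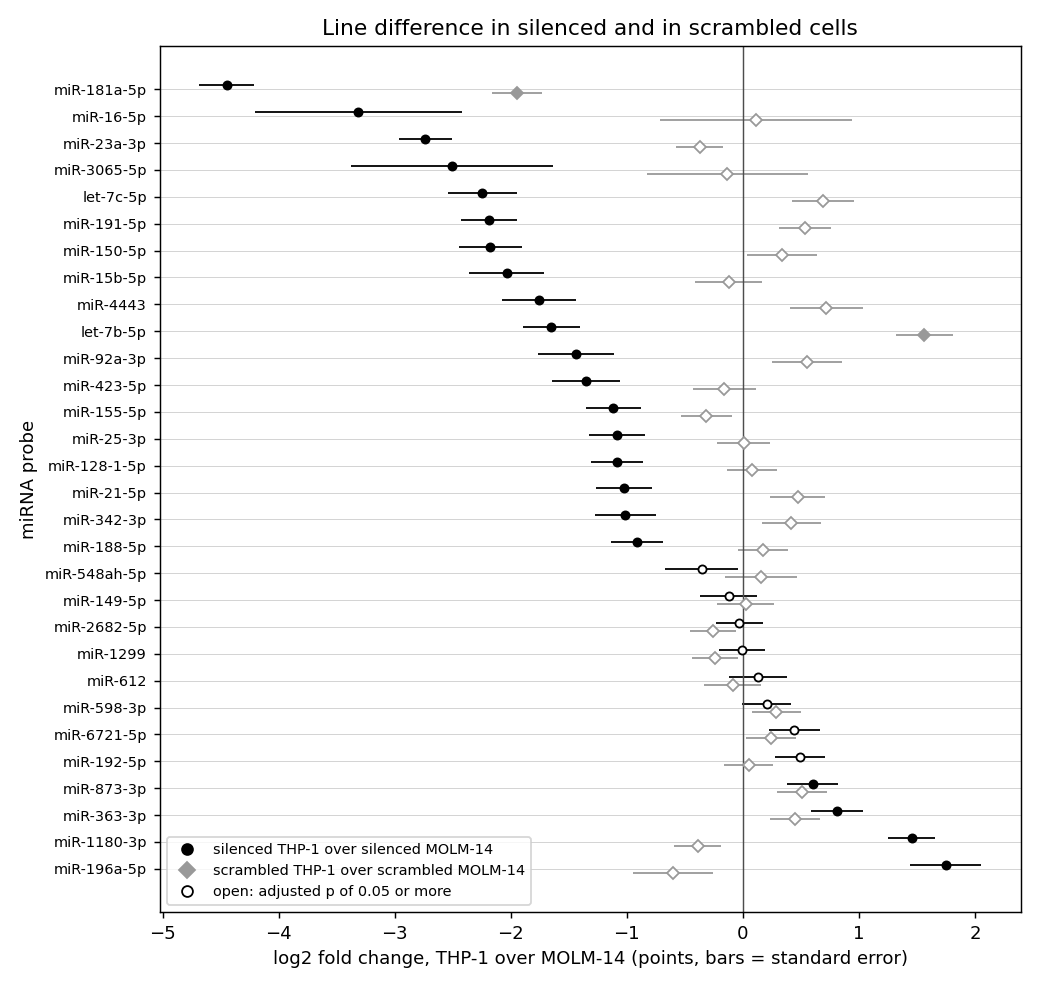
Log2 fold change of THP-1 over MOLM-14 for the 30 miRNAs in silenced cells (black circles) and scrambled cells (grey diamonds), with standard errors as bars and filled marks where the edgeR adjusted p was under 0.05. Silenced values run from -4.45 for miR-181a-5p to 1.75 for miR-196a-5p, while the filled scrambled marks are miR-181a-5p at -1.95 and let-7b-5p at 1.56.

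**Figure D4:**
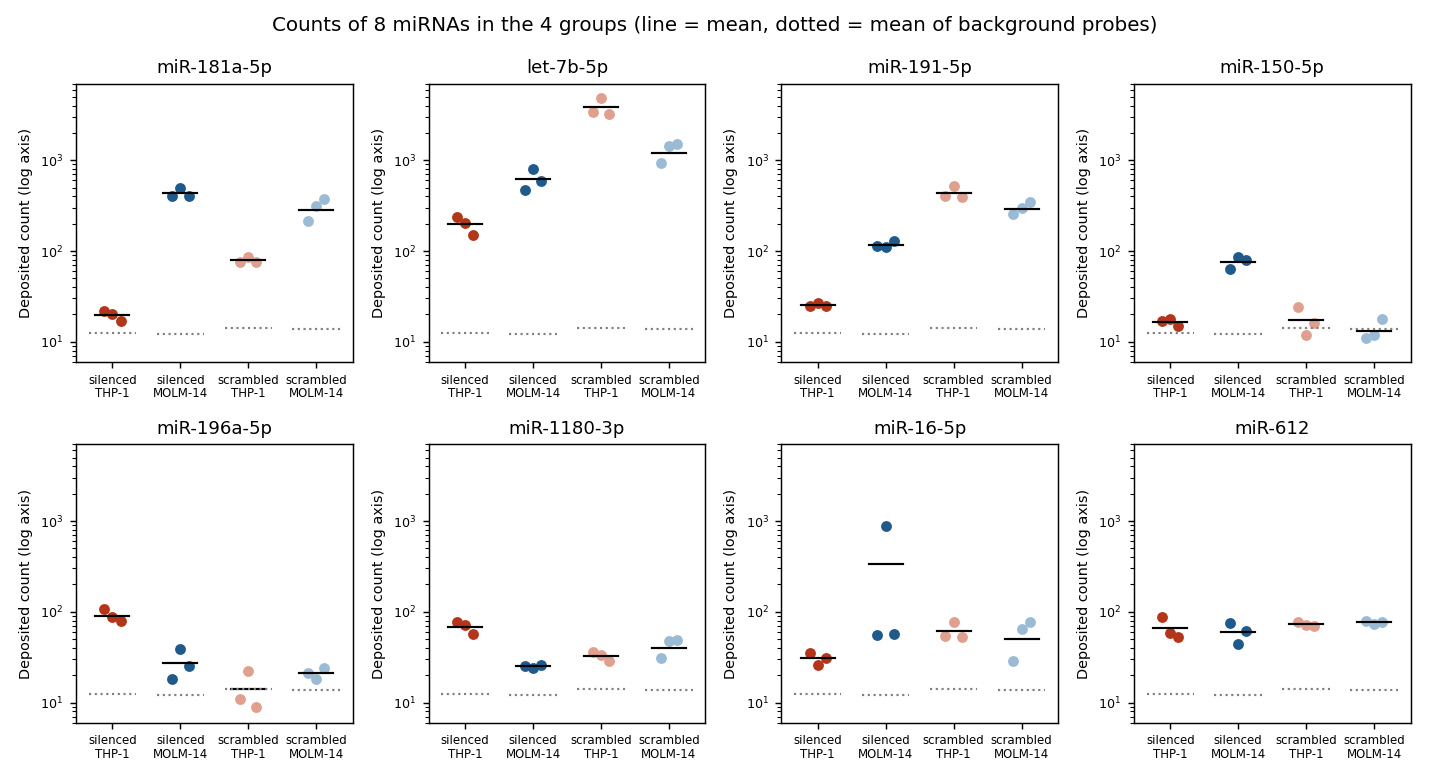
Deposited counts (log axis) of 8 members in each sample of the 4 groups, with group means as black lines and the mean of the background probes dotted. The mean of scrambled MOLM-14 counts samples 2 and 3 as 1. miR-150-5p is above background in silenced MOLM-14, miR-196a-5p in silenced THP-1, and miR-612 is at similar counts in all groups.

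Probes that mark other tissues were mostly near background in both silenced lines. The highest silenced count was 23 among 7 epithelial probes, 20 among 3 erythroid, 26 among 4 muscle, 24 among 5 stromal and endothelial, and 30 among 4 neural probes. Among 7 probes of pluripotent cells it was 42, for miR-302b-3p in silenced MOLM-14 sample 2. miR-128-3p of the neural and miR-302d-3p of the pluripotent list stood at 1, the floor, in every sample. Of 3 liver and gut probes, miR-192-5p is the member given above, miR-194-5p had at most 16 silenced counts, and miR-122-5p stood at 1 except for 52 counts in silenced MOLM-14 sample 3. The part of any such cells in the results was not tested. Of the 24 measured probes of the PD-L1 list, 3 were members, miR-155-5p, miR-15b-5p and miR-16-5p, and all 3 were lower in silenced THP-1, against 46.3% of the 67. miR-155-5p and miR-15b-5p reached 30 counts in MOLM-14 samples alone, and 2 of the 5 tested probes of the list were not called. The median log2 fold change of the 5 tested probes of that list was -1.12, against -0.58 over all 67.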

How the data were processed

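miRNA levels of 12 samples of 2 cell lines were measured with NanoString, per the labels' protocols. The deposited values are probe counts: whole numbers of at least 1, with totals that differ between samples. No source used here names the counting software, a background correction or a lane scaling. Groups came from titles. The 30 miRNAs, the lists and the tests were chosen with earlier results of these data known.

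Probes with 30 counts or more in at least 3 of 12 samples (67 of 798) were fitted with edgeR 4.0.16 (quasi-likelihood, under R 4.3.3) as 4 group means in 1 model, with TMM factors over all 798 probes. TMM over the 67 alone was kept as an alternative, since many of the 67 are low in silenced THP-1. P-values were adjusted by Benjamini-Hochberg over the 67, and intervals of 95% use the fit's t quantiles. Alternatives used other scalings, filters and groups of samples, 10 counts subtracted, a replicate block, DESeq2 1.42.0, limma 3.58.1 on log2(count + 1) and each sample left out. Scrambled MOLM-14 samples 2 and 3 agree within sampling noise (chi-square per degree of freedom 1.08, p = 0.0521 over all probes). They counted as 1 in means but entered the fit as separate samples. Averaged into 1 in the fit as an alternative, they left 5 probes called between the scrambled lines in place of 7. The difference of differences then passed for 23 probes in place of 26. Silenced THP-1 samples agree about as closely (chi-square per degree of freedom 0.990 for 1 and 2, 1.03 for 2 and 3, 1.09 for 1 and 3) but were kept as 3 in means and in the fit, with their average into 1 as an alternative, so the rule was not applied alike. Scrambled THP-1 samples 1 and 3 had 1.07 over all probes and 1.51 over the 67, and were kept apart. The fit was tested on simulated data. Named were the 10 largest called differences each way, the 10 highest counts in each line, members of lists and members at 1 count. The members outside that rule were added after their values were seen. At totals of 9002 to 20418 counts, counting error is large for most probes, and intervals on replicates cover these samples only. Sequences are RefSeq's (GRCh38.p14), matched by miRNA name.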

Additional observations from a re-analysis of the deposited data

Results flagged for a closer look

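For 18 of the 30 miRNAs the difference between THP-1 and MOLM-14 in silenced cells differed from that in scrambled cells, by the test of the difference itself (edgeR interaction contrast, adjusted p under 0.05 over 67 probes). The 30 were chosen on the silenced counts that enter this contrast. The count rule thus favours negative values for members that remained in MOLM-14 only and positive values for those in THP-1 only. The count of 18 and the values of these members are therefore a description. Of the 67 probes 38.8% were called, 35.8% lower and 2.99% higher, and the median difference over them was -0.62. Values are differences of log2 fold changes. In the let-7 family they were -2.93 for let-7c-5p and -3.21 for let-7b-5p. Members of the lymphoid list had -1.43 (miR-342-3p), -2.50 (miR-181a-5p) and -2.51 (miR-150-5p). miR-15b-5p had -1.91, and miR-16-5p had -3.43, but its call was lost in 18 of 23 alternatives, with -1.02 without silenced MOLM-14 sample 2 and its 888 counts. In the seed family of miR-92a-3p (-1.99), miR-25-3p had -1.10. The other negative values were -1.08 for miR-188-5p, -1.16 for miR-128-1-5p, -1.19 for miR-423-5p, -1.50 for miR-21-5p, -2.37 for miR-23a-3p, -2.48 for miR-4443 and -2.72 for miR-191-5p. Positive values were 1.84 for miR-1180-3p and 2.35 for miR-196a-5p. miR-150-5p and miR-196a-5p passed the count filter only through the silenced line where each was high, so the filter favoured their values. With TMM over the 67 probes 12 of the 18 passed, against 23.9% of the 67.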

How the results depend on the processing

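None of the 22 called members changed direction in any of 25 alternatives (for miR-16-5p 24, since DESeq2 gave no adjusted p), and 10 kept their call in all of them: miR-196a-5p and miR-1180-3p as higher, and let-7b-5p, miR-4443, miR-15b-5p, miR-150-5p, let-7c-5p, miR-23a-3p, miR-191-5p and miR-181a-5p as lower. With the silenced THP-1 samples averaged into 1, which leaves fewer samples, the silenced lines differed at 11 of 67 probes in place of 36, at 10 of the 30 members in place of 22, and the difference of differences passed for 10 probes in place of 26. Leaving out 1 sample gave 25 to 38 probes and 20 to 23 members. The scrambled lines differed at 7 probes, at 4 with total counts or with 10 counts subtracted, at 2 with no count filter or with the lower one, and at 3 to 11 with 1 sample left out. The difference of differences passed for 16 probes with TMM over the 67 or with total counts, for 15 with the top 100 probes, no filter or the lower filter, and for 20 to 28 with 1 sample left out. The cause of these shifts was not tested.

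At a minimum of 20 counts 98 probes would be members, 43 remaining in both lines, 30 in THP-1 only and 25 in MOLM-14 only. That minimum lies within the range of background probes. At 50 counts 17 would be, with 2 in both lines. Needing all 3 samples of a line left 7 in both. With 1 silenced sample left out, which makes the rule stricter, members were 18 to 29, with 9 to 15 in both lines, 1 to 6 in THP-1 only and 1 to 18 in MOLM-14 only.

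Repeat numbers are not said to pair samples, and same-numbered silenced THP-1 and silenced MOLM-14 samples had correlations of deviations of 0.0691, -0.0649 and 0.0522, so samples did not all correlate best with their own number. With the repeat as a replicate block the silenced lines differed at 31 probes (21 members), the scrambled lines at 6 and the difference of differences passed for 25. Counts under 30, as 14 of the 18 lower members had on average in silenced THP-1, limit how well sizes are known.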
